A study of Mus musculus with 136 samples.

Results

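The transcripts described here are 9 long non-coding RNAs: the 7 small nucleolar RNA (snoRNA) host genes Gas5, Snhg1, Snhg3, Snhg5, Snhg6, Snhg8 and Snhg12, and the 2 nuclear transcripts Neat1 and Malat1. They were picked by name out of the 47643 genes of the table, and all 9 were found, each once. The deposited symbol column is empty for all of them, so they were matched by their Ensembl identifiers. Neat1 was chosen because of its counts in yolk sacs of diabetic pregnancies with 7-9 somite pairs, and those values are therefore given as a description only. Normal yolk sacs of that stage were the reference in this choice, and some litters gave concepti of both stages. Tests of Neat1 in yolk sacs of either stage are therefore not fully independent of the choice. Embryos and their visceral yolk sacs were collected at E8.5 from dams of the NOD strain, all fed the same chow diet. NOD females become hyperglycemic spontaneously, which made some dams diabetic and left others normoglycemic, and the autoimmune background of the strain is shared by both groups. The libraries of each tissue fell into these groups: 17 concepti with 5-6 somite pairs from 10 normal litters, 17 from 9 diabetic litters, 16 concepti with 7-9 somite pairs from 7 normal litters, and 16 from 6 diabetic litters, of which litter D24M15 alone gave 7. Blood glucose of the dams at the time of collection was 105 to 164 mg/dl in normal and 423 to 595 mg/dl in diabetic pregnancies, and 1 diabetic litter, D28M27, was recorded only as above the scale.

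Host genes such as these are transcribed mainly for what lies in their introns. The spliced-out introns are trimmed into snoRNAs, which guide methylation and pseudouridylation of ribosomal RNA, whereas the spliced exons of many hosts are translated briefly and then degraded by nonsense-mediated decay. Gas5 and several Snhg genes belong to the 5′ terminal oligopyrimidine (TOP) class, the same class as ribosomal protein genes, whose transcripts start with a C followed by a run of pyrimidines. Neat1 is the scaffold RNA of paraspeckles, nuclear bodies built with proteins such as Sfpq, Nono and Pspc1, and it is known to respond to stress. Malat1 is an abundant RNA of nuclear speckles, where splicing factors collect.

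In GENCODE M21 on GRCm38, Gas5 (ENSMUSG00000053332) spans chr1:161034422-161038539 on the plus strand with 10 entries typed as snoRNA inside it. Among them are Snord78, Snord47 and Snord80, which is listed 2 times, and 1 entry is named Mir5117. Snhg1 (ENSMUSG00000108414) lies at chr19:8723475-8726443 on the plus strand with 8 such entries, among them Snord22. Snhg12 (ENSMUSG00000086290) spans chr4:132308623-132311024 on the plus strand and holds 5 entries, for Snora16a, Snora44, Snora61 and Snord99. Its neighbor Snhg3 (ENSMUSG00000085241), at chr4:132348014-132353686 on the minus strand, carries Snora73a and Snora73b, and it overlaps Rcc1 on the same strand over 5592 bases, so its counts may hold reads of Rcc1. Snhg5 (ENSMUSG00000097195; chr9:88521050-88522929, minus strand) carries Snord50a and Snord50b. Snhg6 (ENSMUSG00000098234; chr1:9941959-9944118, minus strand) carries Snord87 and Snhg8 (ENSMUSG00000104960; chr3:123507552-123508404, minus strand) carries Snora24. Neat1 (ENSMUSG00000092274) spans chr19:5824708-5845478 on the minus strand, with annotated transcripts of 711 to 20771 bases, and Malat1 (ENSMUSG00000092341) lies beside it at chr19:5795690-5802672, also on the minus strand, with transcripts of up to 6983 bases. Gas5, Snhg6 and Malat1 each overlap a gene on the opposite strand, by 428, 127 and 453 bases. How strand was set in the counting is not given in the sources used here, so reads of these partners cannot be told apart from theirs with certainty.

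Sequences at the annotated starts of the members were set side by side. Below are 60 bases around the annotated start (40 before and 20 from it on), in RefSeq's GRCm38.p6 sequence and in the direction of transcription, for the 7 members that have an entry, Gas5 being shown at the downstream of its 2 starts. Capitals mark the letters TATA where they stand 40 to 15 bases before the start, and runs of 5 or more C or T from 5 before to 15 after it. Only the transcribed strand was searched, and the letters were chosen after the sequences had been seen.
Gas5, chr1:161035126-161035185, plus strand: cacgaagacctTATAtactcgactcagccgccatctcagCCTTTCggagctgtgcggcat
Snhg1, chr19:8723447-8723506, plus strand: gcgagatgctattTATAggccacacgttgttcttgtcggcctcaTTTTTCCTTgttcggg
Snhg12, chr4:132308638-132308697, plus strand: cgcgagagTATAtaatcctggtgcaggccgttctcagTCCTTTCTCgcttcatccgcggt
Snhg8, chr3:123508317-123508376, minus strand: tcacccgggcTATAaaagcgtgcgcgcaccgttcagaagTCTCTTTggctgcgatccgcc
Snhg5, chr9:88522878-88522937, minus strand: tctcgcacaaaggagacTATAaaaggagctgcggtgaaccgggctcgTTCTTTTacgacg
Snhg3, chr4:132353667-132353726, minus strand: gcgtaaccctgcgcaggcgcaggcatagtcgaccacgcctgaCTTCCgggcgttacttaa
Malat1, chr19:5802653-5802712, minus strand: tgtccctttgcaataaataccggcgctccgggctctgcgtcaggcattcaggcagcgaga
The pyrimidine run is present in all 6 host genes shown and the TATA letters in 5 of them, the exception being Snhg3. Malat1 has neither, and the upstream start of Gas5 has neither. Of 32851 promoters in the same table, 5.91% hold the TATA letters in that place, 33.6% hold such a run and 2.15% hold both. These matches are letters in a window and were not tested as sites.

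The 3′ ends matter as well, since the libraries were made by QuantSeq 3′ FWD, in which an oligo-dT primer starts on stretches of A. Malat1 and the long form of Neat1 are known to end without a conventional poly(A) tail. The longest Malat1 transcript carries a run of 12 A starting at base 6674 of its 6983 bases, with 298 bases after the run, which is a place where such a primer could start. It is printed here, bases 6665 to 6694 with the run in capitals, from GENCODE M21 on GRCm38.
Malat1-201: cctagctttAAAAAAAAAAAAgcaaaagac
The longest run of A was 7 bases in the 20771-base form of Neat1 and 5 bases in its form of 3004 bases. A run of 12 A also stands in the annotated transcripts Snhg12-208 and Snhg12-210, starting at base 460, with 897 and 1067 bases after it. Counts are given per gene, so the short and the long form of Neat1 are not told apart in what follows, and the polyadenylated form can be counted more readily than the other. Levels are not compared between genes for this reason.

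Library totals ranged from 1017901 to 5658850 counted molecules, with a median of 2302819. Levels are given as CPM, the counts scaled to library size after TMM normalization over all libraries compared. The tissue labels were checked against marker genes. The summed level of 10 visceral endoderm markers was 4713 to 24077 CPM in yolk sacs and 41.1 to 1460 CPM in embryos, and that of 7 markers of the embryo proper was above 265 CPM in all embryos and at most 25.4 CPM in yolk sacs. A pair of yolk sac libraries stood apart in the members themselves. In that of conceptus N28M06A (normal, 5-6 somite pairs), all 7 host genes were at the highest level of their group and Malat1 and Neat1 at the lowest, and its visceral endoderm sum of 18772 CPM was the highest of the group. In that of conceptus D28M36C (diabetic, 7-9 somite pairs), the smallest library of the series, Malat1 reached 8596 CPM and mitochondrial genes took 11.6% of the counts. Several of the values that rest on them are given with and without them, and others only with them. Duplicate libraries, made for both tissues of 2 concepti, differed in the members other than Neat1 by at most 0.26 on the log2 scale (median 0.041). For Neat1 the largest difference was between 18 and 8 counts, in the embryo of conceptus D24M15G.

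**Figure D1:**
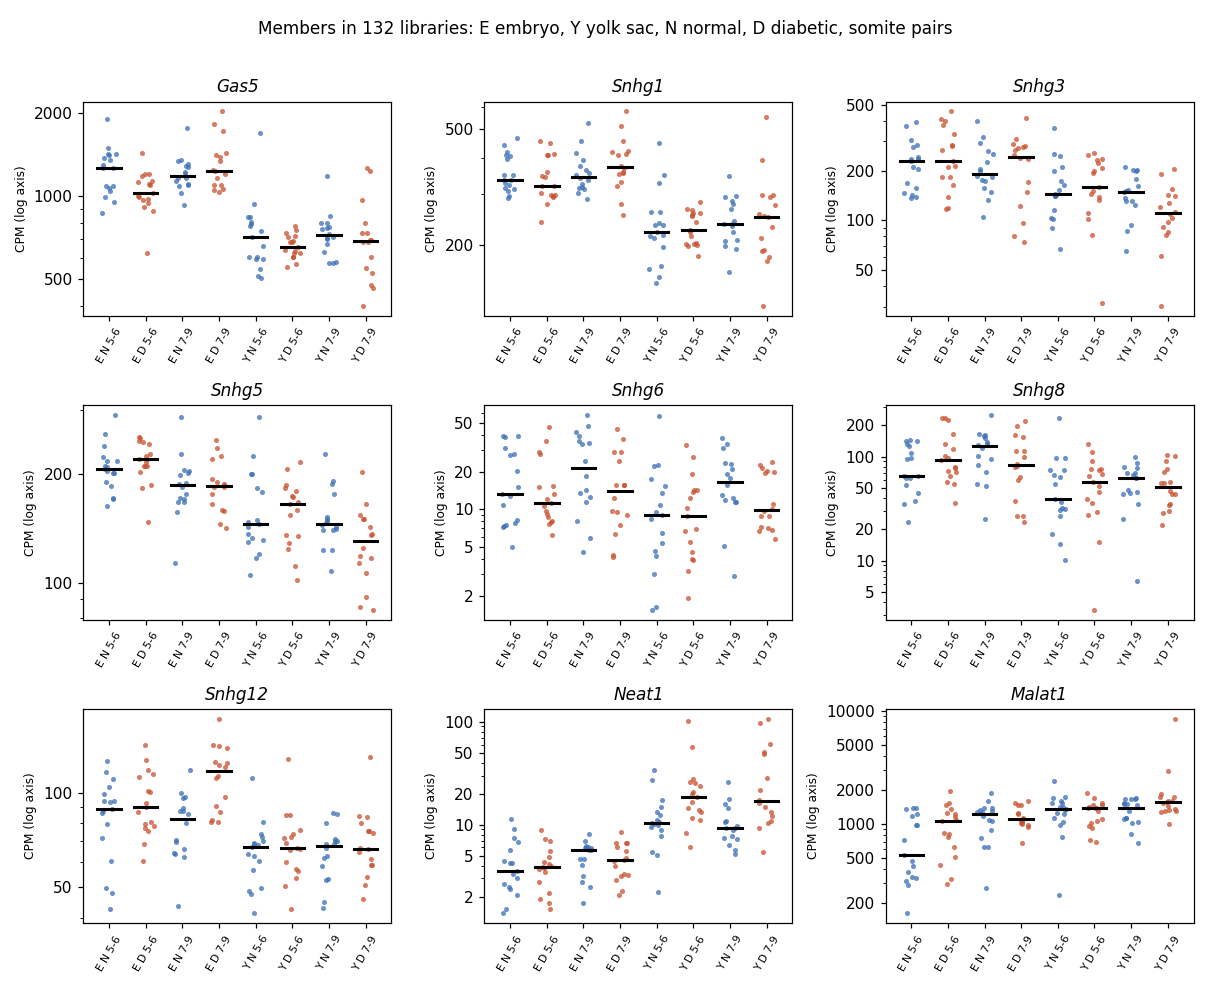
Level of each member in all libraries compared, as CPM on log axes that differ between panels (points: libraries, bars: group medians; blue normal and red diabetic pregnancies; E embryo, Y yolk sac). Host genes, Snhg6 least of them, lay lower in yolk sacs than in embryos, and Neat1 lay higher.

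The embryo and the yolk sac of the same concepti were set side by side first, to ask how the members differ between the tissues. The host genes were lower in the yolk sac. Gas5, which also gives rise to an RNA known for binding the glucocorticoid receptor, ranged from 872 to 1910 CPM in normal embryos with 5-6 somite pairs (median 1270) and from 508 to 1701 CPM (median 711) in their yolk sacs. In 15 of these 17 yolk sacs it lay below every embryo of the group, and the highest yolk sac was the library of N28M06A, without which the maximum was 937 CPM. The log2 fold change, yolk sac minus embryo, was -0.71 ± 0.10 (SE; adjusted p = 7.1e-09, edgeR quasi-likelihood test with Benjamini-Hochberg adjustment over all genes, as for every adjusted p below unless another test is named). In normal pregnancies with 7-9 somite pairs the medians were 1188 CPM in normal embryos and 722 CPM in their yolk sacs, and the difference was -0.76 ± 0.12 (adjusted p = 2.3e-08). In diabetic pregnancies it was -0.64 ± 0.10 with 5-6 and -0.91 ± 0.12 with 7-9 somite pairs (adjusted p = 1.1e-07 and 1.3e-10). Within concepti, Gas5 was lower in the yolk sac in 63 of 66.

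Snhg1, host of the snoRNA Snord22 and its neighbors, followed the same pattern. It ranged from 290 to 466 CPM in normal embryos with 5-6 somite pairs (median 335) and from 148 to 449 CPM in their yolk sacs (median 220), with 14 of 17 yolk sacs below all embryos. The 4 tissue differences lay between -0.54 and -0.60, each called, and 59 of 66 concepti showed the direction. Snhg5, host of Snord50a and Snord50b, differed by -0.35, -0.43, -0.33 and -0.55 in normal and diabetic concepti of the earlier and then of the later stage, again called each time and in the same direction in 59 of 66 concepti. Its ranges overlapped more: 163 to 291 CPM in normal embryos with 5-6 somite pairs against 105 to 286 CPM in yolk sacs. Snhg12, host of the box H/ACA RNAs Snora16a, Snora44 and Snora61, was lower by -0.35, -0.42, -0.33 and -0.71 in the same order, and in 58 of 66 concepti. At 7-9 somite pairs of diabetic pregnancies, its embryos lay at 80.4 to 172 CPM (median 117) and its yolk sacs at 46.0 to 129 CPM (median 66.4), 13 of the 16 yolk sacs below all embryos.

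The other 3 host genes varied more between libraries. Snhg3, the only host shown above without the TATA letters, differed by -0.44 ± 0.20 and -0.59 ± 0.19 in normal and diabetic concepti with 5-6 somite pairs and by -0.56 ± 0.19 and -0.95 ± 0.19 with 7-9 (adjusted p = 0.038, 0.0055, 0.0071 and 1.4e-05). Embryos and yolk sacs overlapped in each of these groups, and 52 of 66 concepti showed the direction. Snhg8 ranged from 25.1 to 252 CPM in normal embryos with 7-9 somite pairs (median 126) and from 6.30 to 98.7 CPM in their yolk sacs (median 61.8), a difference of -1.07 ± 0.27 (adjusted p = 2.8e-04). For diabetic concepti Snhg8 gave -0.92 ± 0.30 with 5-6 and -0.79 ± 0.27 with 7-9 somite pairs (adjusted p = 0.0048 and 0.0060), the latter with an adjusted p of 0.053 when litter was a random block in limma voom. For normal concepti with 5-6 somite pairs, Snhg8 was at -0.50 ± 0.30 and Snhg6 at -0.59 ± 0.35 (adjusted p = 0.13 and 0.12). Both passed without the library of N28M06A, at -0.77 and -0.92 (adjusted p = 0.015 and 0.013), and both passed in the fit blocked by conceptus, at -0.65 and -0.70 (adjusted p = 0.045 and 0.039). Snhg6, with 3 to 189 counts in a library, did not pass in the other 3 comparisons (-0.52, -0.49 and -0.39, adjusted p = 0.17, 0.13 and 0.26), and 40 of 66 concepti had less of it in the yolk sac.

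Neat1 went the other way. In normal concepti with 5-6 somite pairs it ranged from 1.37 to 11.3 CPM in embryos (median 3.58) and from 2.20 to 34.1 CPM in yolk sacs (median 10.3). The groups overlapped, with 6 of 17 yolk sacs above all embryos. The difference was 1.50 ± 0.30 (adjusted p = 1.1e-05). With 7-9 somite pairs, normal embryos had 1.75 to 8.10 CPM (median 5.69) and yolk sacs 5.23 to 25.9 CPM (median 9.24), a difference of 1.07 ± 0.32 (adjusted p = 0.0020). These normal yolk sacs were the reference when the gene was chosen, so this test is not independent of the choice. In diabetic concepti with 5-6 somite pairs, embryos had 1.50 to 8.80 CPM (median 3.84) and yolk sacs 6.01 to 102 CPM (median 18.4), a difference of 2.57 ± 0.30 (adjusted p = 4.3e-12). There, 15 of 17 yolk sacs were above every embryo. Later diabetic concepti, whose yolk sacs chose the gene, differed by 2.72 ± 0.30, given without a test. Over all concepti, 63 of 66 had more Neat1 in the yolk sac.

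Malat1 was higher in yolk sacs in some groups and overlapped in all of them. Normal embryos with 5-6 somite pairs spread from 163 to 1395 CPM (median 532) and their yolk sacs from 235 to 2432 CPM (median 1355), a difference of 0.90 ± 0.23 (adjusted p = 4.5e-04). Of the 17 yolk sacs, 8 lay above all embryos, and the lowest, that of N28M06A, lay within the lower part of the embryos. Diabetic concepti of the same stage gave 0.38 ± 0.23 (adjusted p = 0.13, and 0.51 with adjusted p = 0.040 when blocked by conceptus). With 7-9 somite pairs, normal concepti gave 0.20 ± 0.19 (adjusted p = 0.35) and diabetic concepti 0.75 ± 0.19 (adjusted p = 4.4e-04). Without the yolk sac library of D28M36C the latter fell to 0.42 ± 0.15 (adjusted p = 0.0097). In 50 of 66 concepti Malat1 was higher in the yolk sac.

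**Figure D2:**
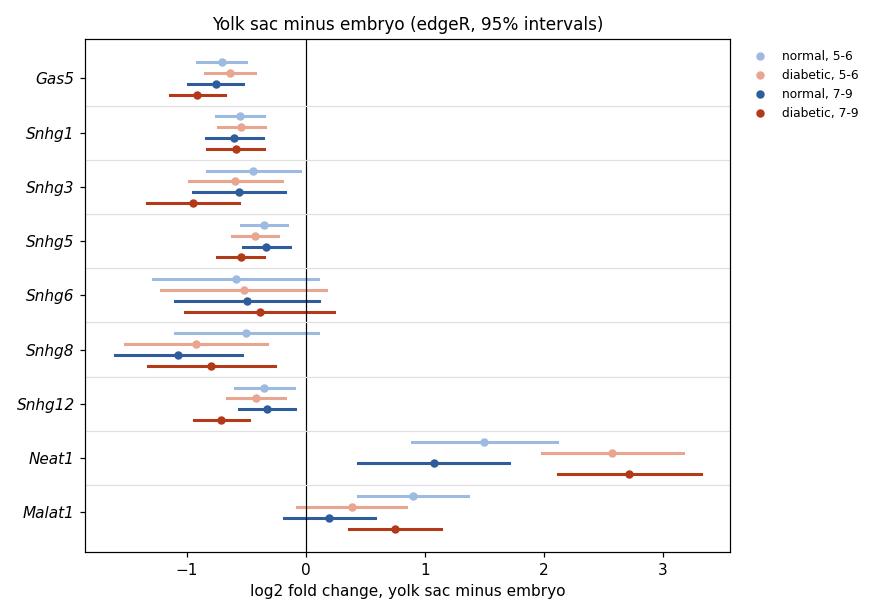
Log2 fold change of each member between yolk sac and embryo, with 95% intervals from edgeR, for normal (blue) and diabetic (red) concepti with 5-6 (light) and 7-9 (dark) somite pairs. The 7 host genes lie below 0 and Neat1 and Malat1 above it, and Snhg6 has intervals that include 0 in all 4 comparisons.

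Of the 9 members, 5 were called lower and 2 higher in the yolk sac for normal concepti with 5-6 somite pairs, where 35.8% and 36.6% of all genes tested were called lower and higher. For diabetic concepti of that stage 6 were lower and 1 higher, against 35.5% and 35.1% of genes. With 7-9 somite pairs 6 were lower and 1, Neat1, higher in normal concepti, against 39.5% and 35.2% of genes. The yolk sacs of these normal concepti were the reference when Neat1 was chosen, so its call there is not independent of the choice. Of the 8 members tested in diabetic concepti of that stage, 6 were lower and Malat1 was higher, against 38.7% and 36.3% of genes. The median difference of the 9 members was -0.44, -0.52, -0.49 and -0.59 in these comparisons, while that of all genes lay between -0.05 and 0.02. In bulk tissue, fewer cells of a type and less of a transcript per cell cannot be told apart, and the tissues consist of different cell types. Markers of 2 of these moved with the tissues in every comparison: all 5 primitive erythroid markers and all 10 visceral endoderm markers were called higher in yolk sacs. Of the 5 endothelial markers, 5 were called higher at 5-6 and 4 at 7-9 somite pairs, and all 7 embryo proper markers were called lower each time. Decidual markers were called lower in all 3, 3, 2 and 2 that could be tested, and immediate early genes were mixed except in later diabetic concepti, where 6 of 7 were called higher in the yolk sac. Their part in the differences of the members was not tested.

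Genes whose products work with the members were counted in the same comparisons. Of all genes tested, 35.8%, 35.5%, 39.5% and 38.7% were called lower in normal and diabetic concepti of the earlier and then the later stage. In the same order, 36.6%, 35.1%, 35.2% and 36.3% were called higher. A list near these shares shows no more than genes in general did. Paraspeckle proteins were lower in the yolk sac, unlike Neat1, the RNA they bind: 7, 8, 9 and 8 of 9 tested were called lower in normal and diabetic concepti of the earlier and then the later stage, and none was called higher. In normal concepti with 5-6 somite pairs the called ones ran from Hnrnpk (-0.38 ± 0.08) to Sfpq (-0.71, one of the core proteins), and with 7-9 somite pairs from Dazap1 (-0.23 ± 0.07) to Hnrnph3 (-1.24). Nuclear speckle proteins were called lower in 5, 7, 10 and 7 of 11 and higher in none, with Srsf7 at -0.57 in normal concepti of the earlier stage. Other long non-coding host genes, 10 of which were tested, mostly went with the members: 7, 7, 6 and 9 were called lower, among them Snhg11 each time (-1.54 to -2.34), while 2, 1, 1 and 1 were called higher, with Snhg18 the highest each time (0.88, 0.72, 0.61 and 0.75). Of 17 protein-coding snoRNA hosts, 1 was called lower and 2 higher at the earlier stage (Rpsa -0.30, Rabggtb 0.42) and 1 higher at the later one, while diabetic concepti had 8 lower and 1 higher, then 5 lower and 2 higher. Proteins of the snoRNPs, the particles in which snoRNAs work, were mixed, with 5, 6, 5 and 9 of 16 lower and 3, 1, 3 and 1 higher. Dkc1, the pseudouridine synthase, was the lowest each time (-0.59 to -1.01) and Nhp2, its partner, the highest (0.32 to 0.71). Other TOP genes were called lower in 6, 7, 7 and 9 of 13, and nonsense-mediated decay factors in 7, 5, 7 and 7 of 14, with at most 1 of either list higher.

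Next, concepti with 7-9 somite pairs were set against those with 5-6 to see whether the members change as somites form. In normal embryos no member passed the test (0 of 9 by edgeR and by DESeq2, 1 at an unadjusted p under 0.05), where 13.7% of all genes did. The member closest to it was Malat1, which ranged from 163 to 1395 CPM (median 532) at the earlier and from 273 to 1882 CPM (median 1229) at the later stage. Both groups cover much the same span, and the difference of 0.63 ± 0.23 had an adjusted p of 0.058. It passed with litter as a random block (0.75, adjusted p = 0.013, limma voom). Among normal embryos with 5-6 somite pairs the litters differed widely: the 4 embryos of N28M06 had 293 to 427 CPM, whereas those of N24M21 had 986 and 1395 CPM.

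In diabetic embryos 1 of 9 members passed, against 31.4% of all genes. This was Gas5, which ranged from 625 to 1431 CPM (median 1033) at 5-6 and from 1038 to 2034 CPM (median 1237) at 7-9 somite pairs. The groups overlapped, and the rise was 0.36 ± 0.09 (adjusted p = 0.0024). By somite number, the median of Gas5 in diabetic embryos was 1004 CPM at 5 pairs (13 embryos), 1086 at 6 (4), 1084 at 7 (4), 1243 at 8 (9) and 1727 at 9 (3). In normal embryos it went from 1269 CPM at 5 pairs (11) over 1382 at 6 (6), 1166 at 7 (7) and 1261 at 8 (4) to 1136 at 9 (5), with no such rise of the medians. The stage difference there was -0.02 ± 0.09. Ranges of the diabetic embryos overlapped, at 974 to 1431 CPM with 6, 1103 to 1827 with 8 and 1058 to 2034 with 9 pairs. Of the later diabetic embryos, 7 came from litter D24M15. The difference between the stage changes, 0.38 ± 0.13, had an unadjusted p of 0.0054 and an adjusted p of 0.057, so the stage change of Gas5 was not shown to differ between normal and diabetic pregnancies. With the number that opens the library titles as a covariate the same term passed (0.41, adjusted p = 0.024). No member passed this interaction test (0 of 9 by edgeR and DESeq2, 2 at an unadjusted p under 0.05), which 8.7% of genes did.

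Yolk sacs from normal pregnancies showed no member that changed with stage (0 of 9 by edgeR and DESeq2, none at an unadjusted p under 0.05), against 8.66% of genes. Leaving out the libraries of N28M06A and D28M36C brought Snhg6 past the threshold, at 0.93 ± 0.32 in place of 0.59 ± 0.33 (adjusted p = 0.033 in place of 0.28). Its yolk sacs had 1.54 to 57.2 CPM (median 9.06) at the earlier and 2.87 to 37.4 CPM (median 16.7) at the later stage, and the highest earlier value was that of N28M06A. In yolk sacs from diabetic pregnancies 2 of the 8 members tested passed, against 33.1% of genes, and Neat1 was not tested there. Snhg3 fell by 0.51 ± 0.19 on the log2 scale (adjusted p = 0.037), from 31.7 to 256 CPM (median 159) to 30.3 to 204 CPM (median 110), ranges that overlap almost wholly. It did not pass with litter as a random block (-0.43, adjusted p = 0.12, limma voom) or with the title number as a covariate (-0.40, adjusted p = 0.11). Malat1 rose by 0.68 ± 0.20 (adjusted p = 0.0052), from 702 to 1874 CPM (median 1391) to 1005 to 8596 CPM (median 1570). Without these 2 libraries, of which D28M36C has the highest later value, the rise was 0.32 ± 0.13 (adjusted p = 0.046) and the later maximum 2978 CPM. Snhg5 was just outside, at -0.28 ± 0.11 (adjusted p = 0.051), and inside without both libraries (-0.30, adjusted p = 0.023). Whether stage acts differently in the tissues was tested in normal pregnancies only. No member passed (0 of 9 by edgeR and DESeq2, 1 at an unadjusted p under 0.05, namely Malat1 at -0.66 ± 0.32), and 0.0435% of genes did.

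The partner genes moved with stage in both directions. Among paraspeckle proteins, Pspc1 fell by 0.23 in diabetic embryos and by 0.38 in diabetic yolk sacs, where Nono fell by 0.54 ± 0.07. In diabetic yolk sacs, where 33.1% of all genes were called, 7 of 17 protein-coding hosts rose and none fell, from Rpl5 (0.56) to Hspa8 (1.47 ± 0.21), whereas 4 of 10 other long non-coding hosts fell and none rose, from Snhg14 (-0.50) to Dancr (-1.01 ± 0.33). In diabetic embryos, where 31.4% were, 3 of 17 protein-coding hosts rose and none fell, with Rpsa at 0.33, and 2 of 10 other long non-coding hosts rose and 1 fell. In normal embryos, where 13.7% of all genes were called, 2 paraspeckle proteins rose and 4 fell, with Hnrnph3 at 0.52 and Nono at -0.33. There, 2 protein-coding hosts rose, among them Hspa8 (0.78). The snoRNP, speckle, decay and TOP lists had members called in both directions or few called, with at most 5 of a list in any direction, the most being 5 of 13 TOP genes that rose in diabetic embryos (Eef1g, 0.50 ± 0.07). Of the markers, Cd74, the single leukocyte marker among 7 with enough counts to be tested, was higher at the later stage in all 4 comparisons (5.92 to 6.82), although its list summed to no more than 102 CPM in any library. Primitive erythroid markers rose in normal and diabetic yolk sacs (4 and 5 of 5) and in both kinds of embryo (3 of 3 tested). Visceral endoderm markers rose in yolk sacs (6 of 10 in normal, with 1 lower, and 8 of 10 in diabetic pregnancies). Immediate early genes rose in diabetic yolk sacs (5 of 7, Fos by 2.35). The part of these markers in the stage changes of Malat1 and Snhg3 was not tested.

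Maternal diabetes was then compared with normal pregnancy within each tissue and stage. In embryos with 5-6 somite pairs no member passed (0 of 9 by edgeR and DESeq2, 1 at an unadjusted p under 0.05), against 1.46% of genes. The lowest p was that of Gas5, with 872 to 1910 CPM (median 1270) in normal and 625 to 1431 CPM (median 1033) in diabetic pregnancies. The ranges overlapped, and the difference, diabetic minus normal, was -0.24 ± 0.09 (95% interval -0.43 to -0.05, adjusted p = 0.14). Malat1 (0.43 ± 0.27) and Snhg8 (0.44 ± 0.25) had the largest differences with intervals that included 0, and Neat1 was at -0.09 ± 0.25.

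In embryos with 7-9 somite pairs 1 of 9 members passed, by edgeR and by DESeq2, against 9.09% of genes. Snhg12 ranged from 43.7 to 118 CPM (median 82.6) in embryos of normal and from 80.4 to 172 CPM (median 117) in embryos of diabetic pregnancies. The groups overlapped between 80.4 and 118 CPM, and the difference was 0.50 ± 0.12 (adjusted p = 0.0068). The result leaned on litter D24M15, whose 7 embryos lay between 112 and 141 CPM. Without it the difference was 0.36 ± 0.14 (adjusted p = 0.099), and with counts summed per litter it was 0.55 ± 0.19 (adjusted p = 0.16). Litter by litter, the embryo of D28M24 was highest at 172 CPM, the diabetic litters D23M26 (80.4 CPM), D28M23 (80.7 and 90.7 CPM) and D28M31 (81.6 to 113 CPM) lay within the range of normal embryos, and the lowest normal litter was N28M30 (43.7 CPM). The means of the 6 diabetic and 7 normal litters differed by 0.57 on the log2 scale (two-sided exact permutation test, p = 0.017, adjusted p = 0.47 over 27 such tests). In embryos with 5-6 somite pairs, Snhg12 had a difference of 0.16 ± 0.13 (adjusted p = 0.47), and the difference between the stages, 0.35 ± 0.18, did not pass (adjusted p = 0.17).

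Other genes of the snoRNA machinery were tested in the same embryos, where 9.09% of all genes were called. Of 16 snoRNP proteins, 3 were higher with diabetes and none lower, from Nop56 (0.34 ± 0.08, adjusted p = 0.0091) to Snu13 (0.59 ± 0.12, adjusted p = 0.0024), and the list's median was 0.13 against -0.01 for all genes. Nop56 also counts among the protein-coding hosts, of which 2 of 17 were higher, the other being Rpsa (0.30), with a median of 0.12. Among 9 other long non-coding hosts Snhg9 was higher (0.52 ± 0.12) and Snhg14 lower (-0.37 ± 0.09). Single genes were called in 3 further lists: Srsf5 of the speckle proteins (-0.40), Eif4a3 of the decay factors (0.26) and Hnrnpa1 of the TOP genes (0.34). No paraspeckle protein was called. Of the marker lists, which give the makeup of the tissues and the handling, the immediate early gene Egr1 alone was called in these embryos (-2.22 ± 0.38). In the other 2 comparisons of diabetic with normal pregnancies in which tests were made, embryos and yolk sacs with 5-6 somite pairs, no gene of these 7 lists or of the marker lists passed by edgeR.

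**Figure D3:**
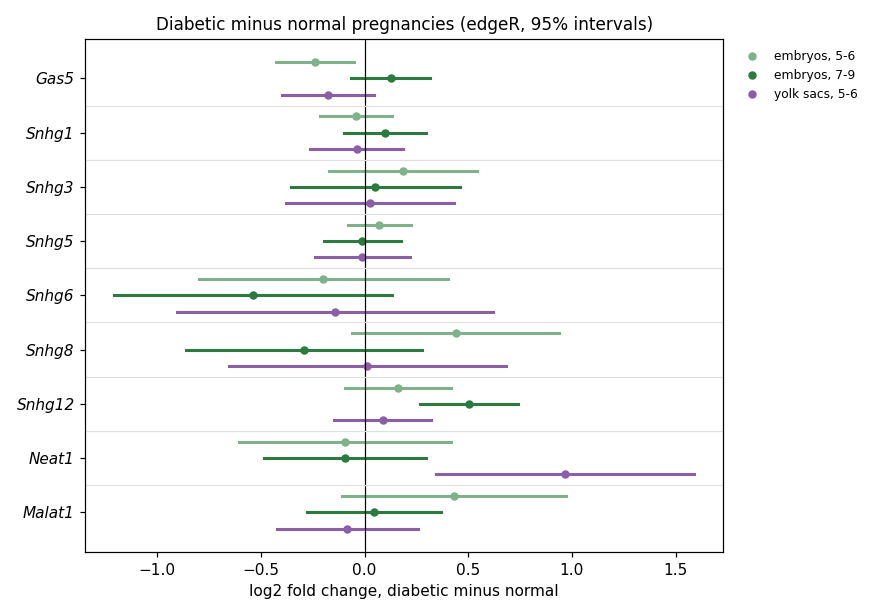
Log2 fold change of each member between diabetic and normal pregnancies with 95% intervals from edgeR, in embryos with 5-6 (light green) and 7-9 (dark green) somite pairs and yolk sacs with 5-6 somite pairs (purple). Snhg12 in later embryos (0.50) and Neat1 in earlier yolk sacs (0.97) stand farthest to the right, and only the first passed the adjusted test.

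In yolk sacs with 5-6 somite pairs 0 of 9 members passed by edgeR and by DESeq2, and 1 had an unadjusted p under 0.05. Of all 10250 genes tested there 0 (0%) passed by edgeR, with 863 at an unadjusted p under 0.05, and 3 passed by DESeq2. The member with the lowest p was Neat1. Its 17 normal yolk sacs had 2.20 to 34.1 CPM (median 10.3) and its 17 diabetic yolk sacs 6.01 to 102 CPM (median 18.4). The groups overlapped, with 2 diabetic yolk sacs, D28M36B at 102 and D28M53B at 56.9 CPM, above the highest normal one. The difference was 0.97 ± 0.31 (unadjusted p = 0.0032, adjusted p = 0.52), and 0.89 ± 0.30 without the library of N28M06A. Litters D24M15, D28M23 and D28M36, and every normal litter of the later stage, gave yolk sacs at both stages. D28M36B is thus a littermate of later yolk sacs that chose the gene, and the test is not fully independent of that choice. Means of the 9 diabetic and 10 normal litters differed by 0.72 on the log2 scale (two-sided exact permutation test, p = 0.068, adjusted p = 0.65 over 27 tests). In embryos of these concepti the difference of Neat1 was -0.09, and the difference between the tissues, 1.07 ± 0.43, did not pass either (unadjusted p = 0.014, adjusted p = 0.62). For that difference between tissues 0 of 9 members passed by edgeR and DESeq2, 1 at an unadjusted p under 0.05, and 0 of 11677 genes passed by either tool, with 895 at an unadjusted p under 0.05. The 8 other members had differences between -0.18 and 0.09 in these yolk sacs, all with intervals that included 0. Without the library of N28M06A, Snhg8 was at 0.30 ± 0.30 and Snhg6 at 0.21 ± 0.35. The widest intervals were those of Snhg6 (-0.90 to 0.62) and Snhg8 (-0.65 to 0.68), which leave room for changes in either direction.

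Yolk sacs with 7-9 somite pairs are the samples that chose Neat1, and their values are given without tests. Neat1 had 5.23 to 25.9 CPM (median 9.24) in the 16 normal and 5.44 to 107 CPM (median 16.9) in the 16 diabetic yolk sacs, from 13 to 293 counts in the latter. Of the diabetic yolk sacs, 6 lay above the highest normal one and 1 below the normal median, and the difference was 1.55 ± 0.34. The 6 came from 3 of the 6 litters: D28M24C with 107 CPM, D28M36C and D28M36D with 96.6 and 28.7 CPM, and D24M15J, D24M15I and D24M15A with 60.1, 50.9 and 48.3 CPM. The other 4 yolk sacs of D24M15 at this stage lay between 9.25 and 21.7 CPM, so littermates of the same dam and stage covered much of the range of the group. The 3 yolk sacs of D28M31 had 5.44 to 12.1 CPM, and those of D28M23 and D23M26 had 13.4 to 17.4 CPM. Leaving out each litter in turn, the difference was 1.27 to 1.78. Neat1 was chosen on these values, so neither the size of the difference nor this range is independent of the choice. Without the library of D28M36C the difference was 1.40 ± 0.32. Malat1 differed by 0.62 ± 0.21, and by 0.26 ± 0.13 without that library. Snhg3 was at -0.35 ± 0.17, Snhg6 at -0.45 ± 0.25 and Snhg5 at -0.23 ± 0.11, and the other hosts lay between -0.04 and 0.11. Across all genes tested in this comparison, 2 of 10317 (0.0194%) passed by edgeR.

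**Figure D4:**
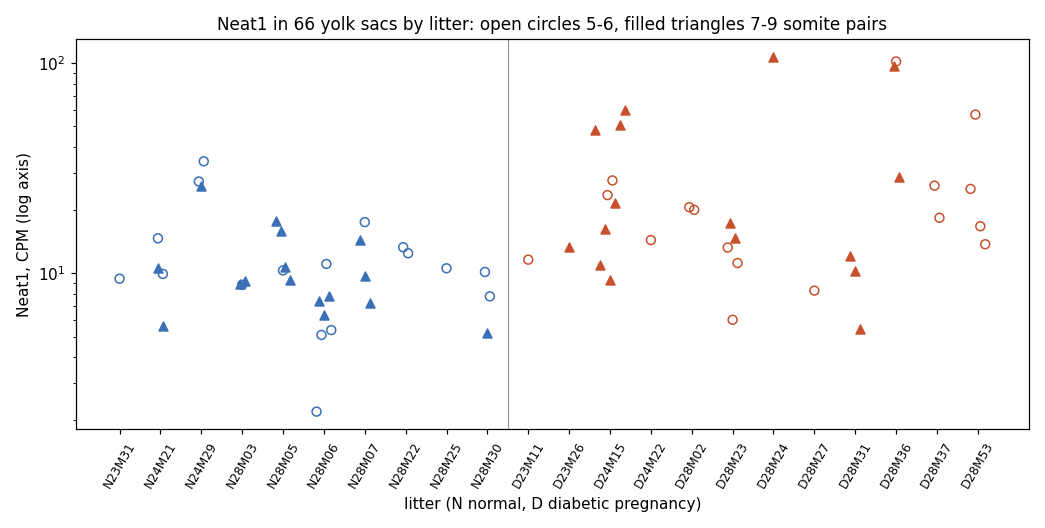
Neat1 level in each of the 66 yolk sacs (CPM, log axis), placed by litter, normal litters left of the line and diabetic litters right of it (open circles 5-6, filled triangles 7-9 somite pairs). Values above 34.1 CPM, the highest normal one, come from the diabetic litters D24M15, D28M24, D28M36 and D28M53. The highest normal values come from N24M29, and D24M15 alone spans 9.25 to 60.1 CPM.

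Set out by dam, Neat1 in yolk sacs was high in some diabetic litters and, among normal litters, in N24M29 alone. No yolk sac of another normal litter was above 17.8 CPM. The 3 yolk sacs of the normal litter N24M29 had 25.9, 27.4 and 34.1 CPM, the highest of all normal yolk sacs at both stages, and its 3 embryos had 5.94 to 11.3 CPM, which includes the highest embryo of the series. In the diabetic litter D28M36 all 3 yolk sacs, from both stages, had 28.7 to 102 CPM, whereas its embryos had 3.84 to 6.68 CPM. Glucose of the dams with a yolk sac above 34.1 CPM, the highest normal value, was 563 (D28M24), 568 (D28M36), 506 (D24M15) and 478 mg/dl (D28M53). That of N24M29 was 135 mg/dl. The highest recorded value, 595 mg/dl, belonged to D28M02, whose 2 yolk sacs had 20.1 and 20.6 CPM. D28M27, whose glucose was recorded only as above the scale, gave 1 yolk sac, with 8.28 CPM. The lowest diabetic glucose, 423 mg/dl, was that of D28M31. No relation between glucose and Neat1 was tested.

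Marker genes were summed in the same yolk sacs. The 6 decidual markers were taken as genes of the maternal tissue around the conceptus. In embryos their sum had group medians of 50.3 to 54.4 CPM, so it is not a measure of maternal tissue alone. In yolk sacs this sum reached 363 CPM in D24M15A and 112 CPM in D24M15J. It was 18.7 CPM in D28M24C and 10.1 CPM in D28M36C, the 2 with most Neat1. In late normal yolk sacs it was at most 34.6 CPM (median 20.8), with 1 of the 6 markers at 0 throughout, and in late diabetic ones 10.1 to 363 CPM (median 31.3). The 7 leukocyte markers summed to 102 CPM in D28M36C and to 3.32 to 26.6 CPM in the other late diabetic yolk sacs, against 1.27 to 26.9 CPM in late normal ones. Immediate early genes, which respond within minutes to handling and stress, summed to 92.1 to 555 CPM in late diabetic and 59.6 to 318 CPM in late normal yolk sacs. They were highest in D28M24C, at 555 CPM, followed by D28M36D at 435 CPM, and they were 149 to 287 CPM in the other 4 yolk sacs with high Neat1. The 10 remaining late diabetic yolk sacs had 92.1 to 162 CPM. Of the 6 with high Neat1, 5 (237 to 555 CPM) were above all of these, D24M15A being the exception. This split follows the Neat1 values that chose the gene, so it is a description only. In normal yolk sacs the sum reached 318 CPM at the later and 355 CPM at the earlier stage, where Neat1 was at most 25.9 and 34.1 CPM. In diabetic yolk sacs with 5-6 somite pairs they were 61.7 to 129 CPM, with 93.7 and 80.8 CPM in D28M36B and D28M53B, the 2 with most Neat1 there. The part of these genes in the level of Neat1 was not tested.

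The spread within groups differed widely between members. Among 10863 genes in embryos and 10244 in yolk sacs, the median standard deviation of log2(CPM + 1) within groups was 0.34 and 0.37. Snhg6 had 0.93 in embryos and 0.94 in yolk sacs and Snhg8 0.83 and 0.96, larger than in 98.5% to 99.1% of genes. Snhg3 (0.58 and 0.61), Malat1 (0.72 and 0.57) and Neat1 (0.55 and 0.89) were also above 90.6% of genes or more in both tissues, Neat1 with few counts in embryos, whereas Gas5 (0.26 and 0.34), Snhg1 (0.25 and 0.36) and Snhg5 (0.23 and 0.32) were below the median in both. Snhg12 was above it in embryos (0.36) and below it in yolk sacs (0.32).

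Snhg6 and Snhg8, the hosts with the widest spread, varied together. Deviations from the group means, over 66 libraries of a tissue, gave Pearson's r of 0.91 between Snhg6 and Snhg8 in embryos and 0.86 in yolk sacs (Spearman's rho 0.93 and 0.83). In embryos Snhg8 ranked number 5 of 10862 genes by likeness to Snhg6. Snhg3 and Snhg8 gave 0.81 and 0.76, and Snhg3 and Snhg6 0.67 and 0.59. Gas5 and Snhg1 gave 0.70 and 0.73, Snhg1 and Snhg3 0.69 and 0.68, and Gas5 and Snhg5 0.71 and 0.54, while Snhg5 and Snhg6 gave -0.01 and 0.08. The r of Malat1 was negative with every host in both tissues, being -0.53 and -0.56 for Gas5 and -0.62 and -0.64 for Snhg1. With the 2 farthest libraries left out, Gas5 and Malat1 gave -0.51 in embryos and -0.37 in yolk sacs, and Snhg5 and Malat1 went from -0.20 to 0.04 in yolk sacs. Neat1 and Malat1 gave 0.37 and 0.59. These correlations are descriptions, since littermates share a dam and all values of a library share its RNA, its preparation and its scaling. The total count of a library had r of at most 0.26 in size with any member.

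**Figure D5:**
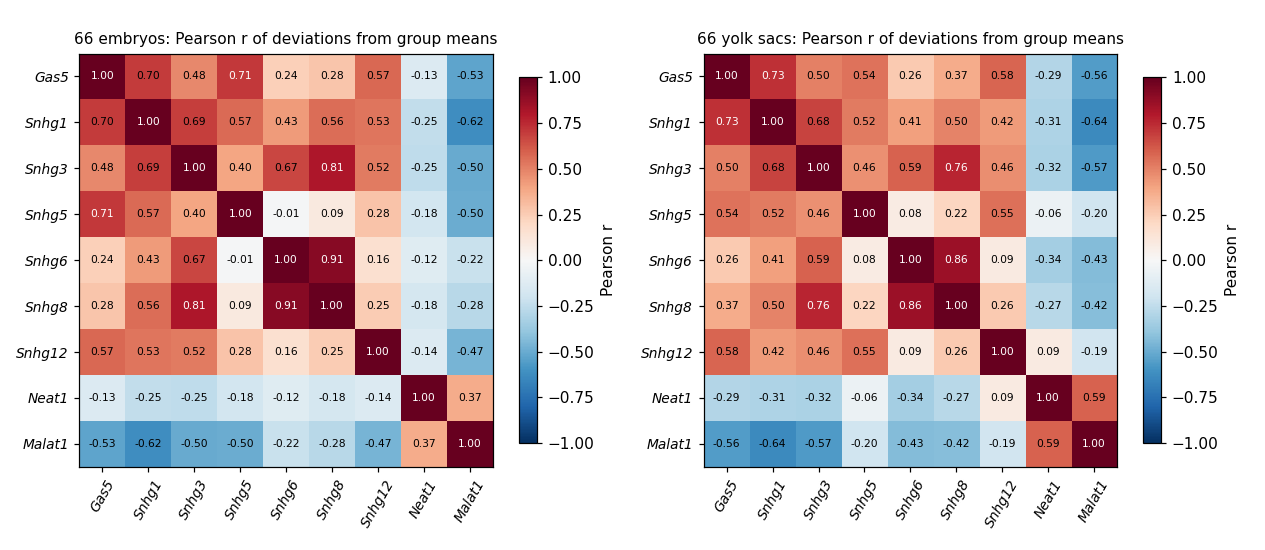
Pearson's r between members over 66 embryos (left) and 66 yolk sacs (right), from deviations of log2(CPM + 1) from the group means (red positive, blue negative). Snhg6 and Snhg8 have the highest r in both tissues (0.91 and 0.86), and the row of Malat1 is negative for all 7 host genes in both tissues.

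The genes most like 3 of the members were named by the same measure. For Malat1 they included Hnrnpr (0.90), Ncl, Smc3 and Bod1l in embryos and Golgb1 (0.89), Prrc2c, Setd5, Chd8 and Nktr in yolk sacs. Among these are genes of RNA processing and chromatin, and Ncl, nucleolin, is itself a host of snoRNAs. For Gas5 they were Nsmce4a (0.85), Prkra, Ift20, Snrpd1 and Rpp14 in embryos and Cenpw (0.86), Rps12, Psmb1, Cox6c and Actr10 in yolk sacs. For Neat1 the likeness was weaker in embryos, with Zfp398 (0.49), Odf2, Tshz2, Slit2 and Strn3. In yolk sacs they included Baz1a (0.66), Slc1a5, Erc1 and Jarid2, where Malat1 ranked number 25. Between the embryo and the yolk sac of the same conceptus, r over 66 concepti was 0.41 for Snhg12, 0.38 for Neat1 and 0.38 for Snhg5, and -0.02 to 0.14 for the other 6 members. Snhg6, which spread widely within each tissue, gave 0.055 between the tissues.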

How the data were processed

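Embryos and visceral yolk sacs of 66 concepti were compared with 1 library each, and 4 batch-control duplicates were used only for the spread between repeats. The deposited values are counts of unique molecular identifiers per gene (QuantSeq 3′ FWD, aligned with STAR, collapsed by identifier and counted with HTSeq by the authors; build mm10 per the submitters' processing notes), not normalized. Versions, annotation and strand setting are not given in the sources used here. The members and lists were chosen with earlier results of these data known. Members were matched by Ensembl identifier through GENCODE M21, since the deposit gives 26051 genes, all 9 members included, no symbol.

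Under R 4.3.3, edgeR 4.0.16 was run on the counts (filterByExpr, TMM, then the quasi-likelihood fit and F-test), with Benjamini-Hochberg adjustment over all genes tested and a threshold of 0.05. Fits used 1 tissue and stage for diabetes, 1 tissue for stage, 1 stage for tissue, and all libraries of normal pregnancies for the tissue by stage term. Litter means of log2(CPM + 1) were compared by exact permutation over 92378 splits for 5-6 and 1716 for 7-9 somite pairs, adjusted over 27 tests. Levels are CPM with TMM over all libraries compared. Embryo and yolk sac are paired by conceptus, as the titles state, and the fit with the conceptus as a block is an alternative. Replicates are concepti, and littermates share a dam. Neat1, Snhg6 and Snhg8 have under 10 counts in some libraries, so their values there are the least precise. The genes named are the members, the highest and lowest called gene of each list, and the 5 genes most like Neat1, Malat1 and Gas5 by Pearson's r, some of which are not reported here. Alternatives used DESeq2 1.42.0 and limma 3.58.1. Scripts were tested on simulated data.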

Additional observations from a re-analysis of the deposited data

How the results depend on the processing

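Across the alternatives, 1791 values of the members were compared with those reported. Of these, 5 no longer passed, 22 newly passed, and none that passed in either setting changed direction. Only values that passed as reported could stop passing. The other 1764 were counted as unchanged. For tested values this meant the same side of the threshold. Among them, 96 that passed in neither setting changed sign, the largest of these being 0.14 in size as reported. Values given without a test counted as unchanged if they moved by less than the member's standard deviation within groups, the larger of the 2 tissues being used. This rule is wide: Malat1 in later yolk sacs counted as unchanged at 0.28 to 0.75 over the litters left out. For diabetes in embryos with 7-9 somite pairs, the 1 member called became 0 with counts summed per litter, and 0 to 1 over the litters left out in turn (0 without D24M15). In embryos and yolk sacs with 5-6 somite pairs that count was 0 throughout. For stage, the count in normal embryos went from 0 to 1 (Malat1) both when litter was a random block and when the title number was a covariate. In diabetic embryos it went from 1 to 2 with DESeq2, with RLE size factors and with the litter block, each time by Snhg5 (-0.21, -0.21 and -0.22). In diabetic yolk sacs it went from 2 to 1 with the title number. In normal yolk sacs it went from 0 to 1 without the yolk sac libraries of N28M06A and D28M36C, an alternative chosen after seeing the data. The stage by diabetes term in embryos went from 0 to 1 with the litter block (Snhg8, -1.14) and with the title number (Gas5, 0.41). With the conceptus as a block, the tissue comparison called 9 and 8 members in normal and diabetic concepti with 5-6 somite pairs in place of 7 and 7, and 7 and 7 with 7-9, as reported. Counts for comparisons that use later diabetic yolk sacs leave out Neat1, which was chosen on them. The tests of litter means passed for no member under any pseudocount or left-out library tried. Calls over all genes, the background of these counts, moved more: in embryos with 5-6 somite pairs 161 genes became 500 with DESeq2, 291 without the filter, 324 with the title number, 4 with the litter block, 0 with litter sums and 4 (without N28M06) to 675 (without N24M21) over the litters left out, and with 7-9 somite pairs 966 became 1714 with the title number, 314 with the litter block, 8 with litter sums and at least 501 without a litter. The 2 genes of later yolk sacs became 38 with DESeq2 and 0 with litter sums, and the 5 of the tissue by stage term 45 with DESeq2 and 163 without the 2 libraries. The 984 of the stage by diabetes term became 2129 with the title number and 438 without the filter, the latter also taking stage from 1545 to 977 in normal embryos and from 940 to 604 in normal yolk sacs (1746 without the 2 libraries). The causes were not tested. Littermates correlated by 0.06 to 0.25 in the fits, so tests over concepti can give p-values that are too small. Neat1 in embryos, with 3 to 42 counts a library, is limited by counting.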
